A study of Homo sapiens with 11 samples.

Results

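The 47 genes described here encode the core machinery of autophagy and the mTOR complexes with their nearest regulators. They were taken by symbol from a table of 45965 rows, and each of the 47 symbols matched 1 row. Their mRNA was counted with a 3′ tag method in H1299 cells, which derive from a human lung carcinoma and lack p53 of their own, over 11 libraries. The lines had been made by transfecting 5 µg of construct DNA with Fugene and selecting for 14 days in neomycin at 800 µg per ml. The constructs carried mutant p53 with 1 of 2 hotspot substitutions, R273H or R175H, joined to arginine (R72) or proline (P72) at the common polymorphic position. There were 1 R273H R72, 4 R273H P72, 3 R175H R72 and 3 R175H P72 libraries, and the labels place R273H P72 replicates 2, 3 and 4 and R175H R72 replicate 1 in batch b1 and the other 7 in batch b2. All 4 groups carry a mutant, so no untransfected, empty-vector or wild-type p53 control enters any comparison. The labels give neither the promoter of the construct nor whether a line was 1 clone, and no label states that the replicates of a group are separate cultures. The p-values therefore set a difference between groups against the spread among libraries within groups, and this spread may be technical.

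Autophagy encloses cytoplasm in a double membrane that fuses with the lysosome. The ULK1 kinase complex starts the process, the class III PI3-kinase complex marks the membrane, ATG9A and ATG2 proteins bring lipid, and an enzyme cascade attaches proteins of the ATG8 family (LC3 and GABARAP) to it, where they bind cargo receptors such as p62. mTOR is a kinase that works in complex 1 (mTORC1, defined by RPTOR), which restrains ULK1 and the lysosomal transcription factor TFEB when nutrients are plentiful, and in complex 2 (mTORC2, defined by RICTOR and MAPKAP1), which phosphorylates AKT.

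TFEB and its relative TFE3 bind DNA around the core CACGTG, which reads the same on both strands. The promoter windows of MAP1LC3B, RPTOR and MAPKAP1 are printed because these genes had the 3 falls with the smallest p in the hotspot comparison, and that of LAMP1 because it holds 6 copies of the core. The windows run from 250 bases before to 50 bases after the start site and come from RefSeq (GRCh38.p14). They are written 5′ to 3′ on the strand of the gene, with each CACGTG in capitals.
MAP1LC3B, chr16:87392086-87392385, plus strand: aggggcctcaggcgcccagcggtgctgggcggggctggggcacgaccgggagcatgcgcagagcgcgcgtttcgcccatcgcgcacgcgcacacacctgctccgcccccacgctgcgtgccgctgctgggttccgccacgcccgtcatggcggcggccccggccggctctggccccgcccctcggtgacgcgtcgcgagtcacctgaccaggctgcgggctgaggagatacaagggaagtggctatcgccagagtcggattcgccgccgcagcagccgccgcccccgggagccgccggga
RPTOR, chr17:80544588-80544887, plus strand: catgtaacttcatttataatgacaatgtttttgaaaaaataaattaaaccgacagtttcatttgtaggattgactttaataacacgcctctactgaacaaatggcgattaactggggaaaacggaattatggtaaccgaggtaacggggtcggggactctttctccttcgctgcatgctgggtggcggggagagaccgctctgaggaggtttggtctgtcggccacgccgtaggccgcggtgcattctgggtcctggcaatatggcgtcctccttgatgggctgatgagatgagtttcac
MAPKAP1, chr9:125707159-125707458, minus strand: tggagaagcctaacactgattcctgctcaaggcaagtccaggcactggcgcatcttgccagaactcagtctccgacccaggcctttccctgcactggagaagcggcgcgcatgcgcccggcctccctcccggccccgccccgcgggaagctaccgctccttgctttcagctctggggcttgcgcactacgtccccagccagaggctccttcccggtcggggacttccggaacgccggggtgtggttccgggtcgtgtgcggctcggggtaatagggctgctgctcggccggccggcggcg
LAMP1, chr13:113296989-113297288, plus strand: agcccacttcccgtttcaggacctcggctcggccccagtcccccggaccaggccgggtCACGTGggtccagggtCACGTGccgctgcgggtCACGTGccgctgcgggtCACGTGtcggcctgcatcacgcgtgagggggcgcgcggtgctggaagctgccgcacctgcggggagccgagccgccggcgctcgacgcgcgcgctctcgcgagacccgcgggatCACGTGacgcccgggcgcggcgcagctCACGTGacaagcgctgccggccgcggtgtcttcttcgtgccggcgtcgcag
The MAP1LC3B, RPTOR and MAPKAP1 windows held 0 copies. Of the 47 genes 39 had a window, and ATG14, ATG3, LAMP1 and TSC2 had a core in theirs, which was 4 of 49 windows (8.16%), against 2548 of all 35116 windows (7.26%).

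Library totals lay between 8346926 and 12829560 estimated counts, and the 47 genes took 0.429% to 0.489% of them. Values are CPM, counts scaled by library size with TMM factors. A 3′ tag library gives about 1 read per transcript end, so CPM is not divided by length. All 47 genes passed the filter on low counts, with a median level of 38.8 CPM against 13.2 CPM over the 16324 genes tested. The keratin KRT18 stood at 656 to 1043 CPM and vimentin (VIM) at 755 to 1827 CPM, while CD3E, CDH5, COL1A2, LUM and ALB, which mark T cells, endothelium, fibroblasts and hepatocytes, were at 0 in all 11 libraries. In bulk RNA, fewer cells of a kind and less RNA per cell cannot be told apart.

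**Figure D1:**
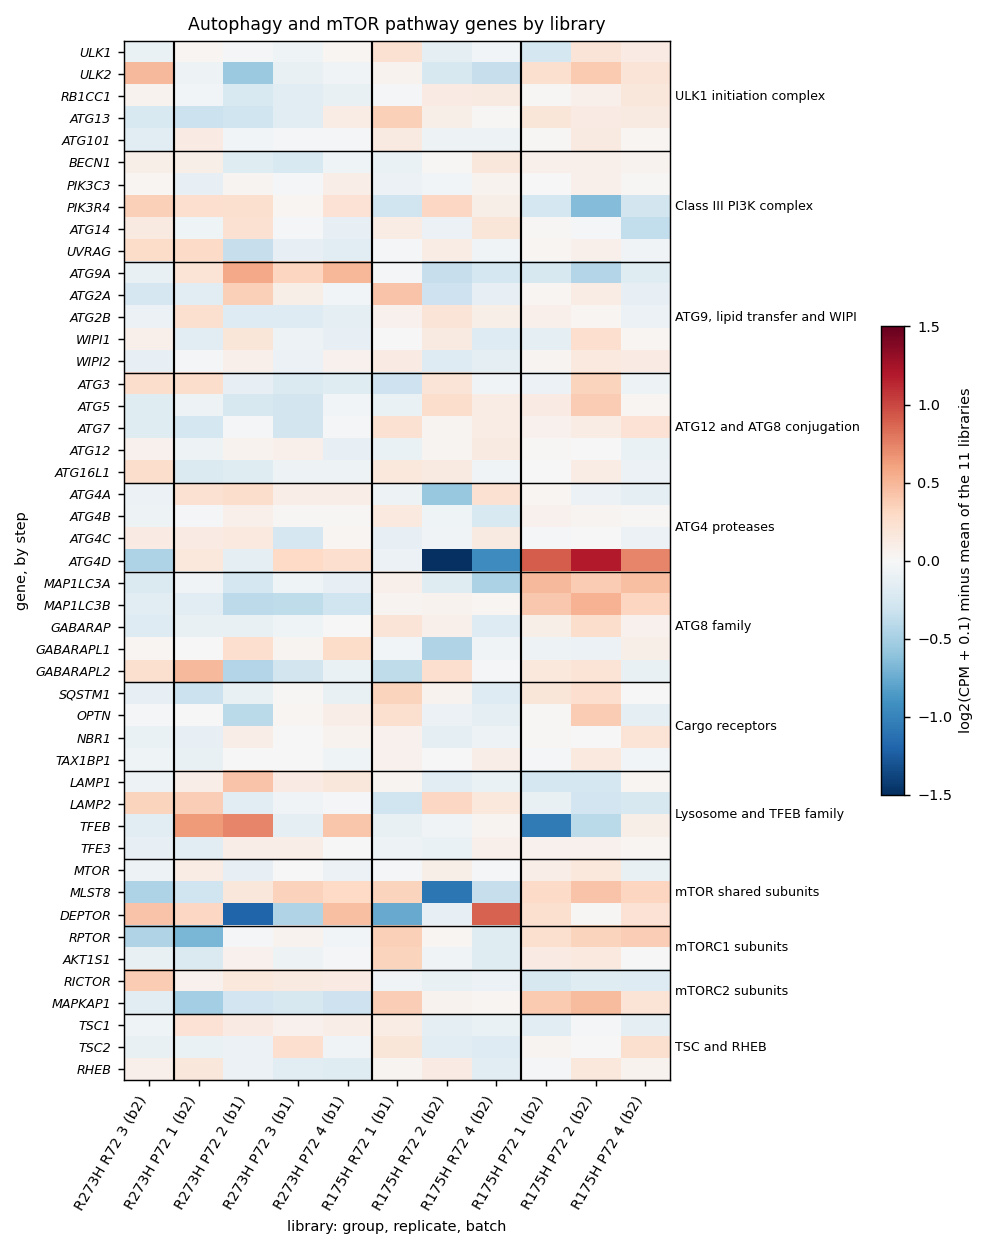
Level of the 47 genes (rows, by step) in the 11 libraries (columns, R273H R72 first), as log2(CPM + 0.1) minus the mean over the 11 libraries, with colour limits at ±1.5. MAP1LC3B and MAPKAP1 are lower in the R273H libraries than in the R175H libraries, and ATG4D is highest in the 3 R175H P72 libraries.

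Between hotspot mutants on P72, several ATG8 family genes and the mTOR subunit genes RPTOR and MAPKAP1 were lower in R273H cells, while ATG9A, PIK3R4 and LAMP2 were higher. Of the 47 genes 14 passed the test (29.8%), 3 higher and 11 lower, beside 14.6% of all genes tested, of which 6.95% were higher and 7.6% lower (edgeR quasi-likelihood test with Benjamini-Hochberg adjustment). Their median log2 fold change was -0.12, against 0.00 over all genes. The R273H P72 libraries lay wholly above the R175H P72 libraries for 6 genes and wholly below for 11, where 28.1% of all genes did not overlap. Between the codon 72 forms on R175H, ATG4D, MLST8, MAP1LC3A and MAP1LC3B were lower with R72 and LAMP2 was higher. These 5 of 47 genes (10.6%) stand beside 1.13% of all genes, 0.319% higher and 0.815% lower. Without the batch term 0 of the 47 were called, and 1 to 6 with each library left out. The groups did not overlap for 5 genes (1 above and 4 below), beside 13% of all genes. The shares of all genes in both comparisons were not matched for level, and the 47 genes had the higher median (38.8 against 13.2 CPM). The R273H over R175H comparison on P72 and the R72 over P72 comparison on R175H share the 3 R175H P72 libraries, so a gene with a low or high value in those libraries moves in both.

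**Figure D2:**
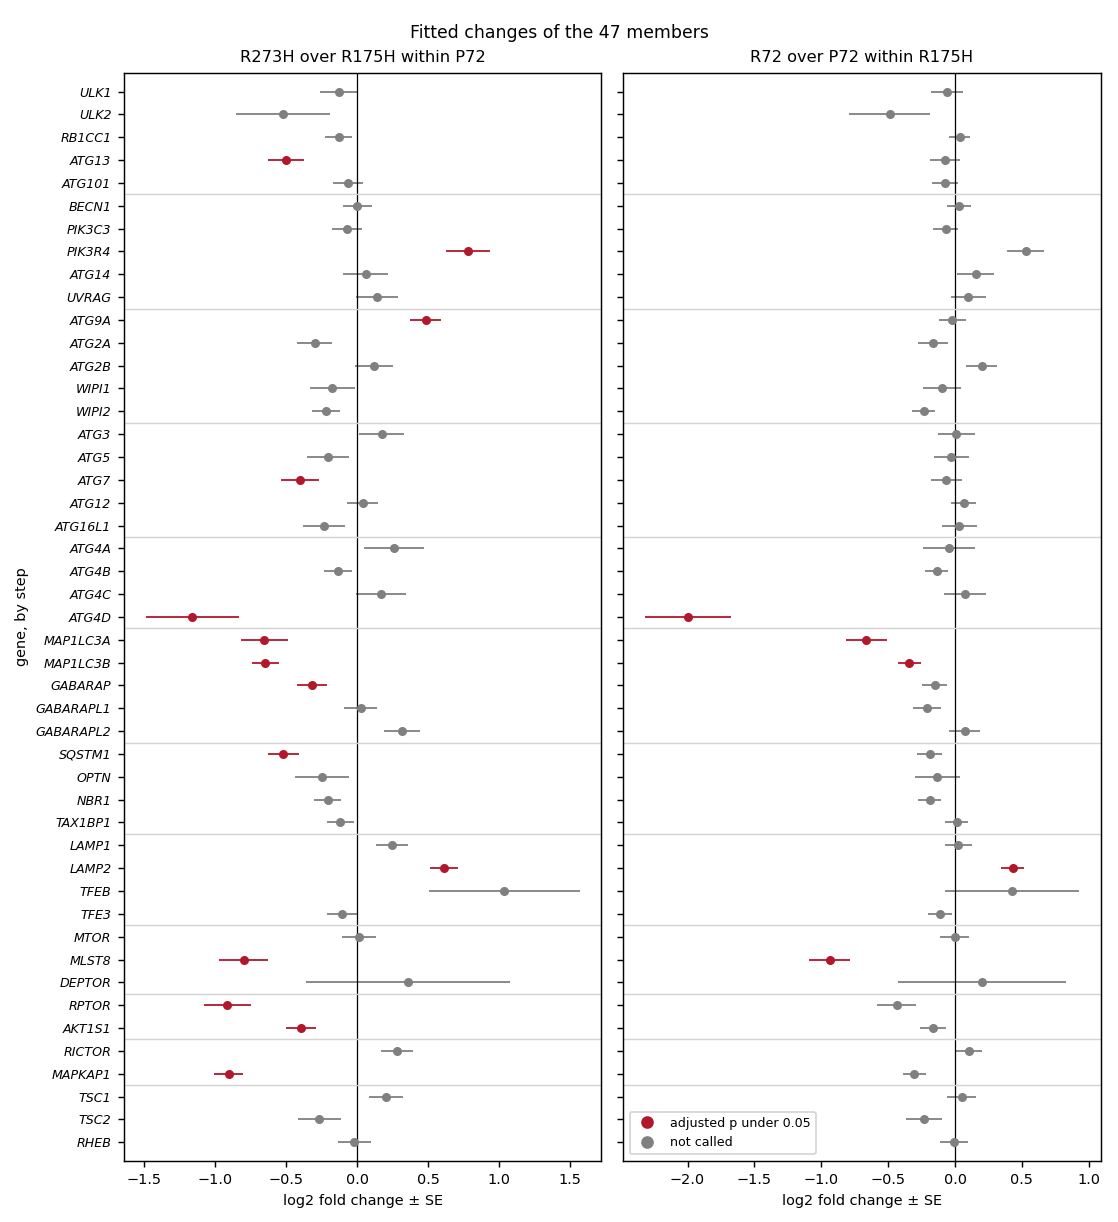
Fitted log2 fold change ± SE of each of the 47 genes, R273H over R175H within P72 on the left and R72 over P72 within R175H on the right; red points passed an adjusted p of 0.05. On the left 3 genes lie to the right of 0 and 11 to the left among the red points, and on the right 1 and 4; the x axes differ.

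In the ULK1 complex, 1 of 5 genes fell in R273H on P72 and the other 4 also had negative values. ATG13, the adaptor that carries the mTORC1 signal to the ULK1 complex, had 27.3, 27.8, 30.6 and 36.9 CPM in the R273H P72 libraries, against 38.9, 37.2 and 37.6 CPM in the R175H P72 libraries. All 4 values were below all 3 (log2 fold change -0.50, SE 0.13, adjusted p = 0.0102). The R273H R72 library had 29.2 CPM, below the 34.7 to 43.7 CPM of the R175H R72 libraries, a difference of -0.30 (SE 0.16) that did not pass. The P72 value was -0.47 in batch b2 alone (adjusted p = 0.0689), -0.47 without R175H R72 replicate 1 (adjusted p = 0.0659) and -0.55 without R273H P72 replicate 1 (adjusted p = 0.0846). ATG13 overlaps HARBI1 on the other strand, which had a value of 0.20 and did not pass.

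In the class III PI3-kinase complex the lipid kinase PIK3C3 and its partner BECN1 had values of -0.07 and 0.00 and did not pass. PIK3R4, the regulatory subunit that anchors PIK3C3, was the 1 of 5 genes that rose. It had 31.4 CPM in the R273H R72 library and 29.2, 28.97, 25.03 and 28.3 CPM in the R273H P72 libraries. The R175H R72 libraries had 19.8, 30.4 and 25.9 CPM and the R175H P72 libraries 20.3, 15.5 and 20.1 CPM. R273H P72 lay wholly above R175H P72 (1.72-fold, log2 fold change 0.78, SE 0.16, adjusted p = 0.00178). With R72 on R175H the value was 0.53 (SE 0.14, adjusted p = 0.0635), just outside the threshold, and the batch b1 library of R175H R72 was the lowest of its 3.

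Among the lipid supply genes ATG9A, which encodes the scramblase of the vesicles that seed the membrane, rose in R273H on P72. Its levels were 79.01, 101, 85.1 and 96.5 CPM in R273H P72 libraries, against 58.1, 50.5 and 60.3 CPM in R175H P72 libraries. The groups were well apart (1.40-fold, log2 fold change 0.48, SE 0.11, adjusted p = 0.00437), and the call was lost without R273H P72 replicate 1 (0.47, adjusted p = 0.0955). The R273H R72 library had 63.4 CPM, below every R273H P72 library and inside the 53.9 to 67.1 CPM of R175H R72. That codon 72 difference on R273H was -0.31 (SE 0.14, unadjusted p = 0.0402, adjusted p = 0.622). ATG2A, ATG2B, WIPI1 and WIPI2 did not pass, with values of -0.30 to 0.12 for R273H over R175H on P72.

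Of the 5 conjugation genes ATG7, the E1-like enzyme that activates ATG12 and the ATG8 proteins, fell in R273H on P72. It had 19.7, 23.2, 19.6 and 23.5 CPM in R273H P72, against 24.8, 25.7 and 27.7 CPM in R175H P72. The groups did not overlap (log2 fold change -0.40, SE 0.13, adjusted p = 0.0463), but ATG7 shares 1596 nt of exon with VGLL4 on the other strand, which fell by 0.50 (adjusted p = 0.0184). The call was kept in 4 of 11 fits that leave out 1 library, with values of -0.44 to -0.36, and was lost without any 1 of the 3 R175H P72 libraries, R175H R72 replicate 1 or 2, or R273H P72 replicate 1 or 3. It was kept in 3 of the 11 other settings, limma-voom, the GC correction and the stricter filter. It is unknown whether reads were assigned by strand. ATG16L1, which places the ATG12-ATG5 conjugate on the membrane, had 20.6 CPM in the R273H R72 library, above 14.9 to 16.4 CPM in R273H P72, and did not pass (0.48, SE 0.19, adjusted p = 0.521).

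ATG4 proteases trim ATG8 proteins before conjugation and release them from membranes. ATG4B, the main one, had 62.7 to 81.4 CPM over the 11 libraries and passed in no comparison, and ATG4A and ATG4C did not either. ATG4D (hg38 chromosome 19, 10543895 to 10553418) had 10.3 CPM in the R273H R72 library and 15.8, 12.79, 17.4 and 16.9 CPM in the R273H P72 libraries. It had 13.3, 3.73 and 7.32 CPM in the R175H R72 libraries and 26.7, 32.5 and 23.7 CPM in the R175H P72 libraries. The 3 R175H P72 libraries were the highest of all 11. The hotspot difference on P72 was -1.16 (SE 0.33, adjusted p = 0.0435) and was called in 4 of the 11 fits that leave out 1 library, with values of -2.10 to -0.81. It was lost without any 1 of the R175H P72 libraries, R175H R72 replicate 1 or 4, or R273H P72 replicate 3 or 4. The 3′ end of ATG4D has a GC content of 61.5%, and with the GC trend removed the hotspot value was -0.99 (adjusted p = 0.0635). It was called in 7 of the 11 other settings. The R72 over P72 value on R175H was called in 6 of 11 such fits (-2.35 to -1.58) and was lost without R175H P72 replicate 1 or 2, R175H R72 replicate 4 or R273H P72 replicate 3 or 4. KRI1, which overlaps ATG4D by 341 nt on the other strand, had values of 0.28 there and 0.06 for R72 on R175H and did not pass. The overlap held 12.3% of the 75-base stretches at the 3′ end of ATG4D.

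**Figure D3:**
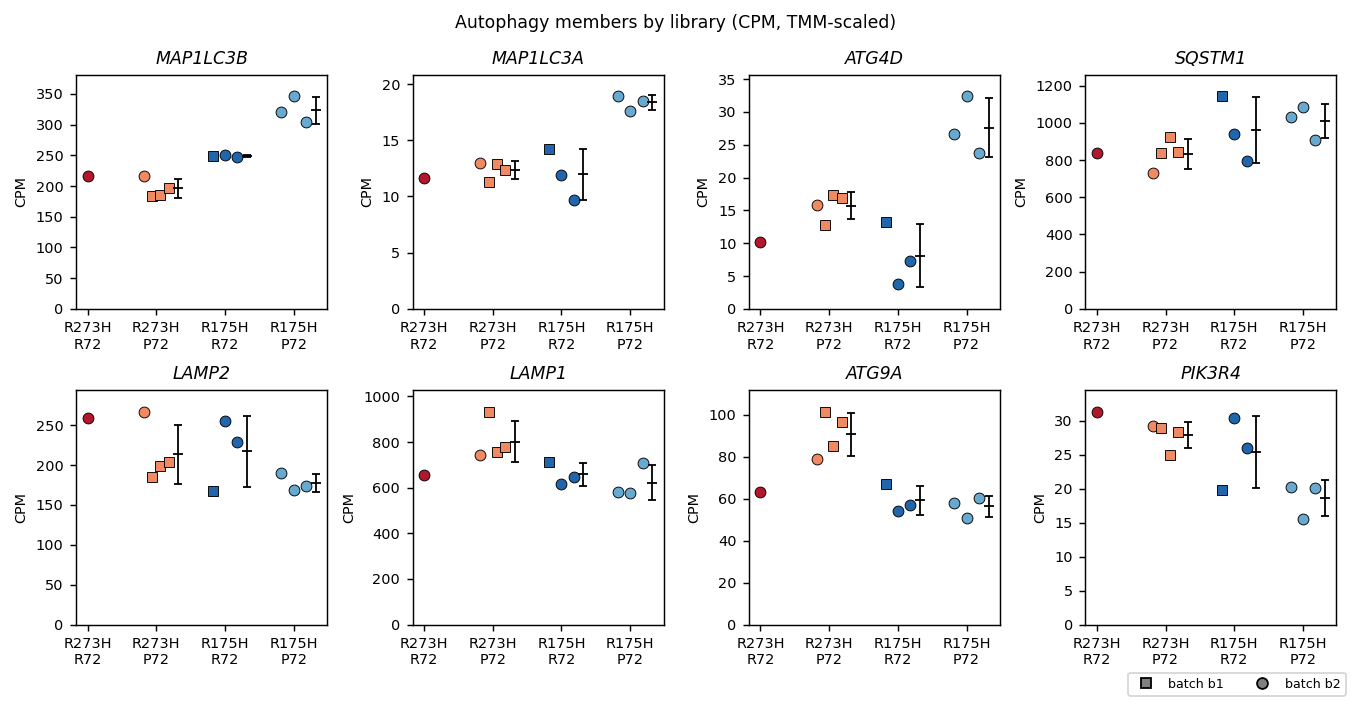
CPM of 8 autophagy genes in each library, by group; squares are batch b1, circles batch b2, and bars the mean ± SD of a group. MAP1LC3B is ordered by group, with 217 CPM in R273H R72, 184.5 to 216 in R273H P72, 248 to 251 in R175H R72 and 304 to 347 in R175H P72.

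Of the 5 ATG8 family genes 3 fell in R273H on P72, MAP1LC3A, MAP1LC3B and GABARAP. MAP1LC3B (hg38 chromosome 16, 87383995 to 87404779), the most used marker of autophagosomes, had 217 CPM in the R273H R72 library and 216, 184.5, 186 and 197 CPM in the R273H P72 libraries. It had 249, 251 and 248 CPM in the R175H R72 libraries and 320, 347 and 304 CPM in the R175H P72 libraries. R175H P72 was the highest group, R175H R72 the next, and both lay above all 5 R273H libraries, an order that was not counted over all genes. On P72 it was 1.57-fold lower in R273H, with a log2 fold change of -0.65 (SE 0.10, adjusted p = 0.000169), and this call held in all 11 other settings and all 11 fits that leave out 1 library. With R72 on R175H the value was -0.34 (SE 0.08, adjusted p = 0.0488). That call was lost in 7 of the 11 other settings and kept in 5 of 11 fits that leave out 1 library (-0.39 to -0.29), being lost without R175H P72 replicate 1 or 2, R175H R72 replicate 2 or 4, or R273H P72 replicate 3 or 4. MAP1LC3B shares 3.74% of the 75-base stretches at its 3′ end with the copy MAP1LC3B2.

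MAP1LC3A, the paralog, was less abundant. It had 11.7 CPM in the R273H R72 library, 12.99, 11.3, 12.9 and 12.4 CPM in R273H P72, 14.2, 11.9 and 9.72 CPM in R175H R72 and 18.95, 17.6 and 18.5 CPM in R175H P72. The R175H P72 libraries stood above the other 8, which overlapped. The values were -0.65 (SE 0.17, adjusted p = 0.0108) for R273H over R175H on P72 and -0.66 (SE 0.15, adjusted p = 0.0334) for R72 over P72 on R175H. With the GC trend of each library removed they were -0.43 and -0.47, with adjusted p-values of 0.0926 and 0.193. Without R175H R72 replicate 1 the hotspot value was -0.50 (adjusted p = 0.114). The R175H call was kept in 5 of 11 fits that leave out 1 library (-0.76 to -0.52), being lost without any 1 of the R175H P72 libraries, R175H R72 replicate 2 or 4, or R273H P72 replicate 3.

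GABARAP fell by less in R273H on P72 (-0.32, SE 0.11, adjusted p = 0.0487), with 109, 109, 113 and 118 CPM in R273H P72 against 125, 141 and 123 CPM in R175H P72. The ranges did not meet, but the call was kept in 3 of 11 fits that leave out 1 library, those without R175H P72 replicate 4, R175H R72 replicate 2 or R273H R72, with values of -0.43 to -0.25 over the 11 fits. It was kept in 3 of the 11 other settings, the GC correction, no filter and the stricter filter, and was -0.21 without the batch term (adjusted p = 0.156) and -0.26 in batch b2 alone (adjusted p = 0.303). GABARAPL1 and GABARAPL2 did not pass in any comparison and had P72 hotspot values of 0.03 and 0.32, that of GABARAPL2 being -0.12 without the batch term. The summed LC3 over the summed GABARAP counts, a ratio chosen after the values were seen, had a log2 value of -0.77 in R273H R72 and -0.87, -0.90, -0.84 and -0.94 in R273H P72. It was -0.47, -0.49 and -0.47 in R175H R72 and -0.21, -0.18 and -0.25 in R175H P72. No 2 groups overlapped, and every R273H library was below every R175H library. MAP1LC3B makes up most of the LC3 sum, and its own level already set the R273H libraries below the R175H libraries. How often such a ratio separates the groups among other genes was not counted.

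SQSTM1, the gene of the cargo receptor p62 and the most abundant of the 47, had 836 CPM in the R273H R72 library and 730, 841, 924 and 844 CPM in R273H P72. It had 1146, 943 and 797 CPM in R175H R72 and 1032, 1087 and 911 CPM in R175H P72. The R273H P72 and R175H P72 ranges met, since 924 lies above 911 CPM. The fitted difference on P72 was -0.52 (SE 0.11, adjusted p = 0.00233), and with batch b2 alone it was -0.47. Without the batch term the value was -0.28 and did not pass (adjusted p = 0.12). MGAT4B, which overlaps SQSTM1 by 105 nt on the other strand, fell by 0.57 (adjusted p = 0.000699), and MRNIP, with an overlap of 1582 nt, did not pass (0.17). OPTN, NBR1 and TAX1BP1, the other receptors here, had values of -0.25 to -0.12 and did not pass.

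Of the 4 lysosomal and TFEB family genes LAMP2 rose in R273H on P72, and the other 3 did not pass. LAMP2 (hg38 chromosome X, 120427827 to 120469365), which coats the lysosome and takes part in fusion, had 259 CPM in the R273H R72 library and 267, 185, 198 and 204 CPM in R273H P72. It had 168, 255 and 229 CPM in R175H R72 and 191, 169 and 174 CPM in R175H P72. The highest values were those of batch b2 in R273H R72, R273H P72 and R175H R72, and the batch b1 libraries were lower. With batch in the model LAMP2 was higher in R273H on P72 (0.61, SE 0.10, adjusted p = 0.000259) and higher with R72 on R175H (0.43, SE 0.08, adjusted p = 0.012). Without the batch term these were 0.26 (adjusted p = 0.232) and 0.29 (adjusted p = 0.682). The R175H call was also lost without R175H P72 replicate 2 (0.40, adjusted p = 0.104) or R175H R72 replicate 2 (0.36, adjusted p = 0.219). LAMP1 had 741, 933, 756 and 779 CPM in R273H P72, against 580, 577 and 710 CPM in R175H P72, with no overlap and a value of 0.25 (SE 0.11, adjusted p = 0.16) that did not pass. TFEB, at 0.504 to 1.99 CPM, had the highest value of the 47 in the P72 hotspot comparison, 1.04, with an SE of 0.53 at these low counts, and did not pass (adjusted p = 0.208). TFE3, at 60.9 to 72.96 CPM, did not pass.

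**Figure D4:**
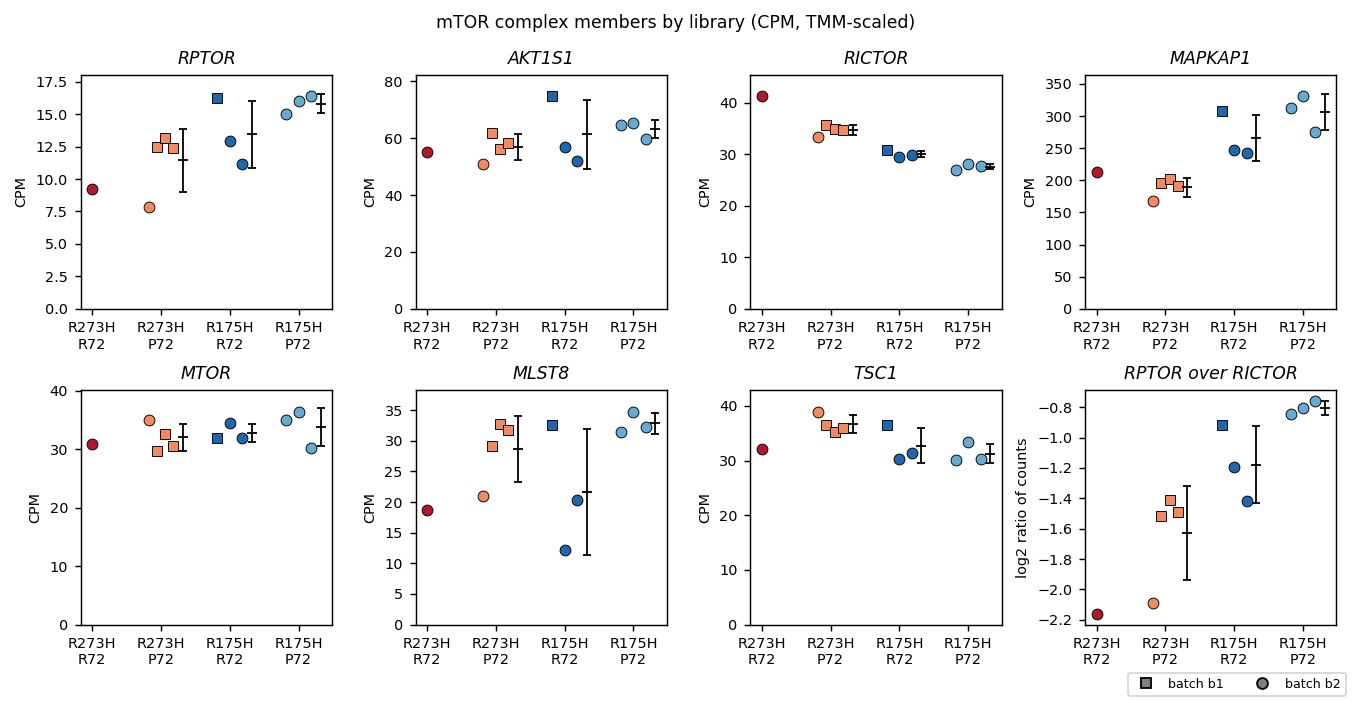
CPM of 7 mTOR genes in each library, by group, and the log2 ratio of RPTOR to RICTOR counts; squares are batch b1, circles batch b2, bars the mean ± SD. RICTOR is ordered by group without overlap, MAPKAP1 is lowest in R273H P72, and the RPTOR to RICTOR ratio is lowest in R273H R72 (-2.16) and highest in R175H P72 (-0.85 to -0.76).

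Of the subunits shared by both complexes, the kinase MTOR had 29.8 to 36.5 CPM and passed in no comparison (0.01 for R273H over R175H on P72, and -0.08 without the batch term). DEPTOR, with 81 counts in all libraries together, passed in no comparison (0.36 for R273H over R175H on P72, SE 0.72). MLST8, which stabilises the kinase domain, had 18.8 CPM in R273H R72 and 20.9, 29.1, 32.8 and 31.8 CPM in R273H P72. It had 32.5, 12.1 and 20.3 CPM in R175H R72 and 31.5, 34.8 and 32.3 CPM in R175H P72. All 4 batch b1 libraries had 29.1 CPM or more, while outside R175H P72 the 4 batch b2 libraries had 12.1 to 20.9 CPM. The fitted P72 hotspot value of -0.80 (SE 0.17, adjusted p = 0.00338) therefore leans on the batch term, without which it was -0.20 (adjusted p = 0.674). MLST8 has a GC content of 62.7% at its 3′ end, and after removing the GC trend it was called in both that comparison (-0.60, adjusted p = 0.0169) and R72 over P72 on R175H (-0.77, adjusted p = 0.0195).

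Both mTORC1 subunits fell in R273H on P72. RPTOR (hg38 chromosome 17, 80544819 to 80966371), the scaffold that recruits substrates, had 9.24 CPM in the R273H R72 library and 7.86, 12.4, 13.2 and 12.4 CPM in R273H P72. It had 16.3, 12.9 and 11.2 CPM in R175H R72 and 15.02, 16.02 and 16.4 CPM in R175H P72. All R273H P72 values lay below all R175H P72 values (1.88-fold lower, log2 fold change -0.91, SE 0.17, adjusted p = 0.000908). The value was -0.48 without the batch term (adjusted p = 0.0709) and -0.75 without R273H P72 replicate 1 (adjusted p = 0.0652). AKT1S1, the inhibitory subunit PRAS40, had 51.02, 61.9, 56.1 and 58.1 CPM in R273H P72, against 64.7, 65.4 and 59.6 CPM in R175H P72, and the ranges met. Its value of -0.40 (SE 0.11, adjusted p = 0.0142) was -0.21 after removing the GC trend (adjusted p = 0.226), and the call was lost without R175H P72 replicate 2 (-0.37, adjusted p = 0.0502) or R175H R72 replicate 1 (-0.31, adjusted p = 0.134).

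Of the 2 mTORC2 subunits MAPKAP1 fell in R273H on P72 and RICTOR did not pass. MAPKAP1 (hg38 chromosome 9, 125437393 to 125707234), which encodes the substrate-binding subunit SIN1, had 213 CPM in R273H R72 and 168, 196, 202 and 192 CPM in R273H P72. It had 308, 247 and 243 CPM in R175H R72 and 313, 332 and 275 CPM in R175H P72. All 5 R273H libraries were below all 6 R175H libraries, a separation that was not counted over all genes. On P72 it was 1.87-fold lower in R273H, with a log2 fold change of -0.91 (SE 0.10) and an adjusted p of 1.47e-05, the smallest adjusted p among the 47 genes. The call held in all 11 other settings and in all 11 fits that leave out 1 library. On R72 the same difference was -0.22 (SE 0.12, adjusted p = 1). R72 against P72 had a value of 0.38 on R273H (SE 0.13, adjusted p = 0.375) and -0.31 on R175H (SE 0.09, adjusted p = 0.0899). Their difference of 0.68 (SE 0.16) had an adjusted p of 0.138 with edgeR and was called by DESeq2. Without R175H P72 replicate 4 edgeR called it (0.75, adjusted p = 0.0473), and also the R175H value (-0.38, adjusted p = 0.0326).

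RICTOR, the scaffold of mTORC2, had 41.3 CPM in R273H R72 and 33.4, 35.7, 34.95 and 34.8 CPM in R273H P72. It had 30.7, 29.5 and 29.9 CPM in R175H R72 and 27.01, 28.03 and 27.8 CPM in R175H P72. The 4 groups did not overlap, yet R273H over R175H did not pass on P72 (0.28, SE 0.11, adjusted p = 0.0982) or on R72 (0.48, SE 0.13, adjusted p = 0.934). How many of all genes keep the 4 groups apart was not counted. The log2 ratio of RPTOR to RICTOR was -2.16 in R273H R72 and -2.09, -1.52, -1.41 and -1.49 in R273H P72. It was -0.92, -1.20 and -1.42 in R175H R72 and -0.85, -0.81 and -0.76 in R175H P72. R175H P72 was highest, and R273H P72 and R175H R72 met near -1.4. The summed ratio of the mTORC1 to the mTORC2 subunits ran the other way, at -1.77 to -1.64 in R273H P72 and -2.14 to -2.00 in R175H P72, and MAPKAP1 makes up most of the mTORC2 sum.

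Of the brake on mTORC1, TSC1, TSC2 and the GTPase RHEB that it switches off, 0 of 3 passed in any comparison by edgeR, DESeq2 or limma-voom, and 0 had an unadjusted p under 0.05 by edgeR. TSC2 had the smallest p, with 19.1, 19.2, 24.4 and 19.7 CPM in R273H P72, against 21.1, 20.4 and 24.2 CPM in R175H P72 (-0.27, SE 0.15, adjusted p = 0.26). The groups overlapped. TSC1 had 35.2 to 38.96 CPM in R273H P72, above the 30.1 to 33.3 CPM of R175H P72, with a value of 0.20 (adjusted p = 0.285) that was -0.04 without R273H P72 replicate 1.

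Other genes of the pathway, 116 tested in 8 lists, had 7 higher and 12 lower in R273H on P72 (16.4%), a share near the 14.6% of all genes tested. Among amino acid sensors and GATOR genes, which relay nutrient state to mTORC1, 1 of 16 rose (SEH1L, fitted 0.55, with mean levels of 47.7 CPM in R273H P72 and 50 CPM in R175H P72, and -0.06 without the batch term) and 3 fell, SESN2 (-0.61), GATSL3, now called CASTOR1 (-1.44), and NPRL3 (-0.68). SESN2, the leucine sensor, had 296 to 382.5 CPM in R273H P72, against 430.5 to 445 CPM in R175H P72. DDIT4, an inhibitor of mTORC1 that acts through TSC, had 338 to 360 CPM in R273H P72, against 485 to 496 CPM in R175H P72 (-0.57, adjusted p = 0.000348). It and TBC1D7 were the 2 of 17 input genes that fell, and 0 rose. EIF4EBP1, the translation repressor that mTORC1 phosphorylates, had 31.7, 30.5, 32.4 and 29.4 CPM in R273H P72, against 51.3, 63.4 and 58.7 CPM in R175H P72 (1.98-fold lower, log2 fold change -0.99, SE 0.13, adjusted p = 8.4e-05). It was the 1 of 8 substrates that fell.

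Of 13 Rag and Ragulator genes 1 rose, the lysosomal arginine sensor SLC38A9 (0.68, adjusted p = 0.021). It had 15.7, 12.4, 11.4 and 10.04 CPM in R273H P72, against 11.2, 10.1 and 11.2 CPM in R175H P72. The groups overlapped, and without the batch term the value was 0.20 (adjusted p = 0.589), and in batch b2 alone 0.54 (adjusted p = 0.166). Of 12 further autophagy core genes edgeR and limma-voom called 0 and DESeq2 called 2, while 4 had an unadjusted p under 0.05 by edgeR. In fusion genes 3 of 14 fell, PLEKHM1 (-0.96), YKT6 (-0.37) and VPS16 (-0.44), and of 9 other receptors TOLLIP (-0.60) and PINK1 (-0.47) fell. Of 27 lysosomal genes 5 rose and 1 fell, and the tetraspanin CD63 had 2960, 2770, 2550 and 2741 CPM in R273H P72 against 2004, 2012 and 2181 CPM in R175H P72 (0.46, adjusted p = 0.00309). PSAP, the saposin precursor, had 1414 to 1620 CPM in R273H P72 against 1081 to 1084 CPM in R175H P72 (0.44, adjusted p = 0.00477). Without R273H P72 replicate 1 the values of CD63, PSAP and PLEKHM1 were 0.37, 0.30 and -0.87, with adjusted p-values of 0.15, 0.26 and 0.0541. With R72 on R175H 2 of the 116 passed (1.72%, near the 1.13% of all genes tested), NPRL3 (-0.52, adjusted p = 0.0444) and the S6 kinase gene RPS6KB2 (-0.60, adjusted p = 0.00692), and in the other 3 comparisons edgeR called 0 (11 at an unadjusted p under 0.05 for R72 over P72 on R273H, 5 for R273H over R175H on R72 and 10 for the difference, with 0, 0 and 1 called by DESeq2 and 0 by limma-voom). NPRL3 on R175H, PINK1 and TBC1D7 were called in 3, 4 and 3 of 11 fits that leave out 1 library, SLC38A9, YKT6 and VPS16 in 9, 9 and 8, TOLLIP in 10 (not without R175H R72 replicate 1) and RPS6KB2 in 10 (not without R175H R72 replicate 2).

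On R273H there was 1 R72 library, and its spread was taken to equal that of the remaining groups. Of the 47 genes 0 passed for R72 over P72 on R273H (4 at an unadjusted p under 0.05, 0 by DESeq2 or limma-voom), where 0% of all genes did and 7.75% had an unadjusted p under 0.05. For R273H over R175H on R72 0 passed (1 at an unadjusted p under 0.05, 0 by either other tool), beside 0.0429% and 4.62% of all genes. With the 1 R273H R72 library, 47.2% of all genes do not overlap R273H P72 and 45.6% do not overlap R175H R72. The difference between the R72 effects on the 2 hotspot mutants was called for 0 of the 47 (9 at an unadjusted p under 0.05, 1 by DESeq2 and 0 by limma-voom), beside 0.0306% and 10.2% of all genes. For the 5 genes called on R175H this difference was 1.73 for ATG4D (3.01 and called, adjusted p = 0.0308, without R273H P72 replicate 1), 0.93 for MLST8, 0.66 for MAP1LC3A, 0.41 for MAP1LC3B and -0.50 for LAMP2, with adjusted p-values of 0.245 to 0.433. Their R72 effects were therefore not shown to differ between the hotspot mutants.

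**Figure D5:**
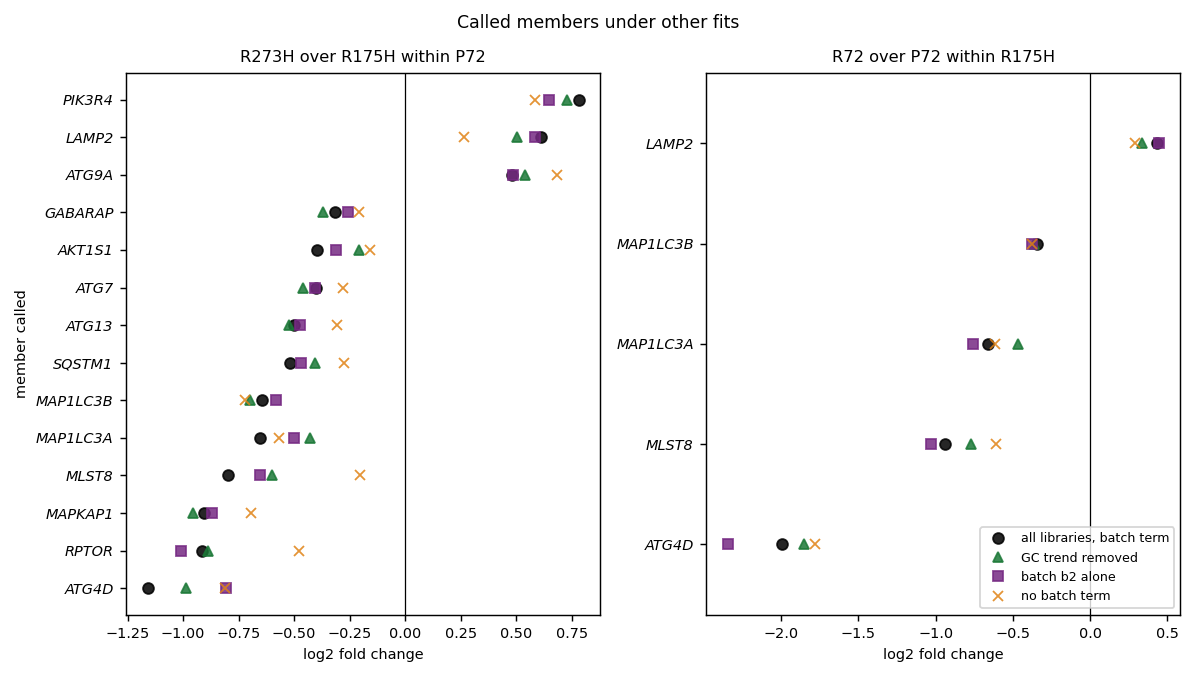
Log2 fold change of the genes called, fitted on all libraries with the batch term, after removing the GC trend, in batch b2 alone and without the batch term. MAPKAP1 runs from -0.96 to -0.70 and MAP1LC3B from -0.72 to -0.58 in the hotspot comparison, while MLST8 runs from -0.80 to -0.20.

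Batch bears on the hotspot comparison because 3 of 4 R273H P72 libraries are b1 and all R175H P72 libraries b2. In b2 alone, with R273H P72 replicate 1 against 3 R175H P72 libraries, 6 of the 47 were called, with the spread of the lone R273H P72 library taken from the other groups. That library stood apart from the other R273H P72 libraries for RPTOR, ATG101 and ATG2B. The 6 were PIK3R4, ATG9A and LAMP2 higher and MAP1LC3B, RPTOR and MAPKAP1 lower. Without the batch term 7 were called, among them LAMP1 and RICTOR. The slope of expression on the GC content of 3′ ends was -0.085 log2 units per 10% GC in R273H R72, -0.061 in R273H P72 replicate 1, -0.087 and -0.055 in R175H R72 replicates 2 and 4, and 0.007 to 0.028 in R175H P72. In the 4 batch b1 libraries it was 0.045 to 0.077. ATG4D and MLST8 were the genes still called for R72 on R175H with that trend removed.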

How the data were processed

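RNA from 11 H1299 libraries was sequenced with the Lexogen QuantSeq 3′ kit as single 75 nt reads on a NextSeq 500, per the labels' protocols. The authors deposited estimated counts for each Ensembl gene, all whole numbers (0 other value columns). Per the submitters' processing notes the tools were Bowtie2, RSEM 1.2.12 and DESeq2 on hg38, and their settings, strand included, are not given in the sources used here. The 47 genes and all lists were chosen with earlier results of these data known.

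Genes passing filterByExpr (minimum count 10, total 15; 16324) were scaled by TMM (factors 0.979 to 1.03) and fitted on 4 groups and batch over all 11 libraries with edgeR 4.0.16 in R 4.3.3 (robust quasi-likelihood test, Benjamini-Hochberg over all genes, threshold 0.05). The procedure was tested on simulated data with independent libraries and no batch effect, so that test could not show how batch bears on the calls. Coordinates are from GENCODE 29 (hg38). Genes were named if called, or if first by p in their step; the ATG8 and mTOR genes always; and up to 3 called genes of each other list per comparison. SEH1L, LAMP1, TSC1, TFEB and others outside this rule were named after their values were seen. One listed gene, SAMTOR, was not analysed here. Some genes that the rule took are not reported. Of 123 other pathway genes 122 were found, 4 by gene ID.

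Alternatives tried were scaling by RLE or by library totals, no filter, 10 CPM in 3 libraries, DESeq2 1.42.0, limma-voom (limma 3.58.1), no batch term, a replicate block, batch b2 alone, a GC correction of 5 degrees of freedom on the last 500 nt (16029 genes) and leaving out each library. GC correction within b2 was added after seeing the data. Precision is limited to 1 library for R273H R72. Replicates of a group differed by more than counting noise (4.01 to 18.3 chi-square units for each degree of freedom), and none was merged.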

Additional observations from a re-analysis of the deposited data

Results flagged for a closer look

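In 5 of the 47 genes tested in the 4 R273H P72 libraries, 1 library stood apart from its group by Dixon's criterion (its gap to the nearest library against the range of the group), which chance alone meets in about 1 of 20 groups. RPTOR had 7.86 CPM in replicate 1, against 12.4 to 13.2 CPM in the other R273H P72 libraries. ATG101, a ULK1 complex subunit, had 73.7 CPM in replicate 1, against 65.9 to 66.4 CPM. ATG2B, a lipid transfer protein gene, had 27.4 CPM in replicate 1, against 20.3 to 21 CPM. Replicate 1 is the R273H P72 library of batch b2. ULK2 had 1.76 CPM in replicate 2, against 2.42 to 2.54 CPM, and TSC2 had 24.4 CPM in replicate 3, against 19.1 to 19.7 CPM.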

How the results depend on the processing

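None of the 14 and 5 called values of the 47 genes changed sign in any setting. In the P72 hotspot comparison other values did: without the batch term SEH1L was -0.059, GABARAPL2 -0.122, MTOR -0.077 and ATG2A 0.059; with the GC correction MTOR was -0.033 and GABARAPL1 -0.020 (-0.013 in b2). With a library left out GABARAPL1 lay between -0.035 and 0.082, MTOR between -0.067 and 0.071 and TSC1 between -0.037 and 0.316. For R72 over P72 within R175H, the 185 genes called became 564 with no filter, 333 with DESeq2, 6 without the batch term, 81 with the replicate block, 57 with the GC correction and 66 with that correction in b2, and the 5 genes of the 47 became 0, 2, 2 and 2 in the last 4. Leaving out each library gave 24 to 272 genes and 1 to 6 of the 47 (1 without R175H P72 replicate 2, and 2 without R175H P72 replicate 1, R175H R72 replicate 2 or 4, or R273H P72 replicate 3). For R273H over R175H within P72, the 2376 genes became 866 in b2 alone and 643 with GC correction there, and the 14 of 47 became 7 without the batch term, 6 in b2 and 5 with both; leaving out each library gave 1214 to 2463 genes and 8 to 14 of the 47, 8 without R175H R72 replicate 1 and 9 without R273H P72 replicate 1. For R72 over P72 within R273H, the 0 genes became 137 with no filter, 112 with DESeq2, 1 in b2 with or without the GC correction and 2 with the replicate block, and 0 to 6 with each library left out, with 0 of the 47 in each. For R273H over R175H within R72, the 7 genes became 16, 2, 14, 3 and 2 with no filter, the stricter filter, DESeq2, no batch term and the replicate block, and 3 to 9 with each library left out. For the difference of R72 effects, the 5 genes became 196, 138, 1, 2 and 1 with no filter, DESeq2, no batch term, the replicate block and the GC correction, and 0 to 48 with each library left out; 3 of the 47 were called with no filter, 1 by DESeq2 and 0 to 1 with a library left out. Under library totals the sums in R273H R72 were 633 CPM for the ATG8 family, 1222 for cargo receptors, 1007 for lysosomal and TFEB genes, 4456 for all 47 and 3597 for these without SQSTM1. The causes were not tested. Replicate numbers do not pair the libraries (correlations of deviations -0.608 to 0.251). Leaving out the 1 R273H R72 library gave no value for the comparisons that use it. Depth limits the genes of low counts most: TFEB had an SE of 0.53 in the P72 hotspot comparison.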
